A study of Mus musculus with 2 samples.

Results

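Enzymes that write and erase histone marks, and the proteins that read those marks or move nucleosomes, were compared between follicular and marginal zone B cells of the mouse spleen. The genes were chosen by symbol alone, from the families Kdm, Kmt, Setd, Prmt, Hdac, Smarc, Arid, Chd and Brd. Of 12393 genes named by probe sets with a single annotated gene, 70 had such a symbol, on 122 probe sets, and 66 of the 70 were measured, meaning that at least 1 of their probe sets exceeded a floor signal of 12.7 on at least 1 array. The follicular sample was 1 array of splenic B cells with high CD23 and intermediate CD21, and the marginal zone sample was 1 array of splenic B cells with intermediate CD23 and high CD21. The populations are called FO and MZ cells from here on. Both were wild-type female C57BL/6 cells, B220-enriched on magnetic beads from 3 mice and pooled after sorting; their ages, and whether both sorts used the same mice, are not stated. All values are MAS5 signals, the summary intensity of an Affymetrix probe set, scaled to a common level and given with FO before MZ. With 1 array per population there is no replicate error and no test, so differences are described by size and no p-value is given. In bulk samples, fewer cells of a type and less RNA per cell cannot be told apart.

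DNA in the nucleus is wound on histones, and chemical groups on the histone tails mark where genes are active or silent. Lysine methyltransferases (Kmt, Setd) and arginine methyltransferases (Prmt) add methyl groups, lysine demethylases (Kdm) remove them, and histone deacetylases (Hdac) remove acetyl groups. Bromodomain proteins (Brd) bind acetylated histones, while ATP-driven remodellers slide or evict nucleosomes. Among the remodellers are the Chd enzymes and the SWI/SNF complexes, which contain some of the Smarc and Arid proteins. In B cells these proteins act at the genes that are opened or closed as a resting cell is activated and becomes an antibody-secreting cell.

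The sorted cells carried B cell transcripts. Cd79a, Cd79b, Ms4a1, Ptprc and Pax5 were above the floor on both arrays. Cd79a, at 197 and 116, Cd79b, at 1040 and 546, and Pax5, at 20.7 and 16.6, were lower in MZ cells. Ms4a1, at 1754 and 1878, and Ptprc, at 1901 and 1986, were slightly higher there. The gate genes followed the gates, with Fcer2a (CD23) at 727 and 89.6 and Cr2 (CD21) at 278 and 890. Of 14 macrophage and monocyte markers 7 were measured, and all 7 had the higher signal in the MZ sample, with summed signals of 73.0 and 181. For 4 of them, Cd5l, C1qb, Cd68 and Vcam1, only the MZ signal exceeded the floor, so the filter fixed their direction. Adgre1 was near equal, at 23.7 and 24.9. Under the floor on both arrays, C1qc, Fcgr1, Itgam, Cd163 and Marco had the higher signal in FO cells, C1qa and Hmox1 in MZ cells. Of 8 T cell markers 2 were measured, Cd3e at 17.2 and 1.29 and Cd4 at 13.9 and 1.98, each under the floor in the MZ sample. Of 8 proliferation markers 6 were measured and 4 were higher in MZ cells, with Mki67 at 9.40 and 50.1 and Mcm6 at 84.1 and 154, while Mcm2, at 106 and 77.3, and Pcna, at 382 and 364, were lower. The summed signals over the 6 were 619 and 718. Mki67 and Ccna2 exceeded the floor only in the MZ sample. Of 5 plasma cell markers, all measured, 3 were higher in MZ and 2 in FO cells. Past 2-fold were Prdm1, at 12.7 and 30.9, and Sdc1, at 68.3 and 4.35, the latter under the floor in the MZ sample. The part of these transcripts in the results that follow was not tested.

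The 2 populations differed little in most of these chromatin genes. Of the 66 measured members, 62 differed by less than 2-fold. At least 2-fold higher in FO cells were 4 members, the SWI/SNF subunits Arid1a and Arid2, the DNA-binding factor Arid3b and the demethylase Kdm7a, while 0 were at least 2-fold higher in MZ cells. Over all 7695 measured genes the 2-fold shares were 4.86% and 4.39%, together 9.25%, so the 6.06% of members past 2-fold was no larger than the background. At 1.5-fold, 10 members were higher in FO and 6 in MZ cells, against 15.8% and 13.6% of all measured genes. The members split evenly by direction, 33 each way, and their median log2 MZ/FO ratio was 0.00073, beside a median of -0.030 over all measured genes.

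**Figure D1:**
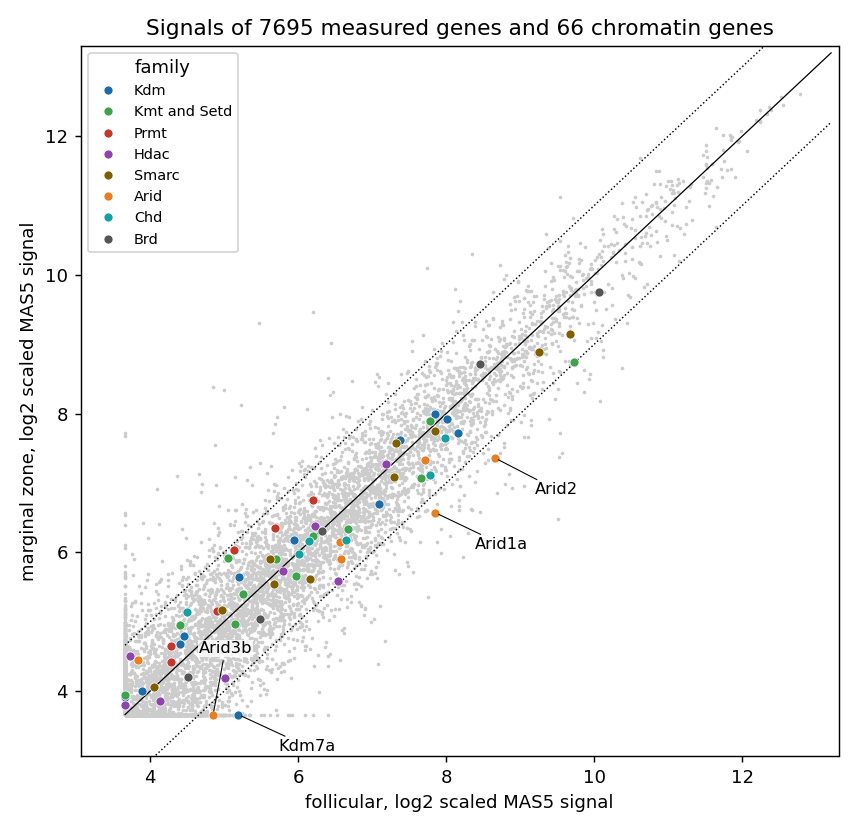
Scaled MAS5 signals on log2 axes, follicular on the x axis and marginal zone on the y axis, 1 array each. Grey points are the 7695 measured genes, coloured points the 66 measured chromatin genes by family, the solid line marks equal signals and the dotted lines 2-fold; values under the floor are drawn at the floor. Arid1a, Arid2, Arid3b and Kdm7a lie below the lower dotted line and no coloured point lies above the upper one.

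The families differed in direction, most clearly Prmt and Arid. All 6 arginine methyltransferases had the higher signal in MZ cells, as did 8 of 12 lysine demethylases and 7 of 12 lysine methyltransferases, and the 8 deacetylases split 4 and 4. In the other 4 families the higher signal was more often in FO cells, in 6 of 7 Arid, 6 of 10 Smarc, 4 of 6 Chd and 4 of 5 Brd genes. Over all measured genes 47.8% were higher in MZ and 52.2% in FO cells. For families of this size, the counts for Smarc, Chd, Hdac and Kmt with Setd were close to these shares. The family medians, as log2 MZ/FO, ran from 0.46 for Prmt through 0.19 for Kdm, 0.069 for Kmt with Setd, 0.016 for Hdac, -0.11 for Smarc, -0.18 for Chd and -0.30 for Brd to -0.68 for Arid. These medians kept their sign under each of the 4 other scalings of the arrays. With the floor raised to the 75th percentile, the median of Kmt with Setd turned to -0.14 over the 8 members left. With each gene's next brightest probe set it was -0.045 over 7 members. The Hdac median turned to -0.064 when both arrays had to exceed the floor, which left 7 members.

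**Figure D2:**
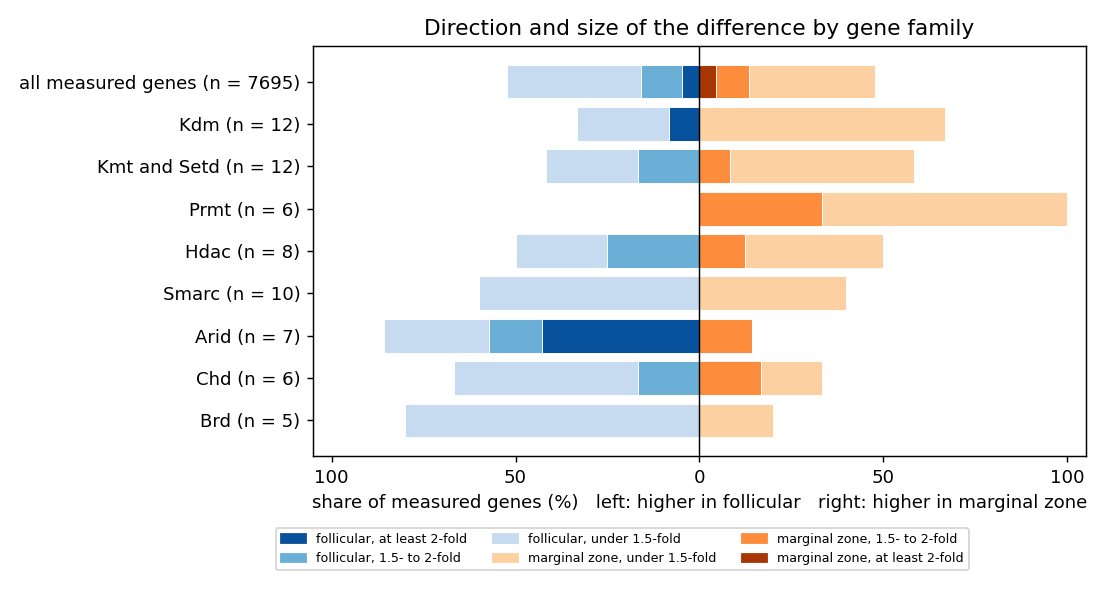
Share of the measured genes of each family, in percent, that had the higher signal in FO (left, blue) or MZ cells (right, orange), with darker colours for differences of 1.5- to 2-fold and at least 2-fold. The top bar gives the 7695 measured genes as background; the 6 Prmt genes all lie to the right, and 6 of 7 Arid genes to the left, 3 of them past 2-fold.

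The families were also taken as 2 larger classes, a grouping chosen after the values were seen. Those named for enzymes that modify histone tails (Kdm, Kmt, Setd, Prmt, Hdac) were higher in MZ cells in 25 of 38 cases. Their median log2 ratio was 0.14. The families that hold remodelling and reader proteins (Smarc, Arid, Chd, Brd) were higher in MZ cells in 8 of 28 cases, with a median of -0.31. They include 5 DNA-binding Arid factors outside SWI/SNF, 4 of them higher in FO cells. The first class joins the families with medians above 0 and the second those with medians below 0. Opposite class medians were thus largely fixed by the grouping. Both medians kept their sign under all 11 alternatives, but these use the same 2 arrays and give the contrast no independent support. Most of the single differences behind them were under 1.5-fold, and the difference between the classes has no test. Over the next brightest probe sets, which exist for 14 and 15 of these genes, the higher signal was in MZ cells for 9 and 3.

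**Figure D3:**
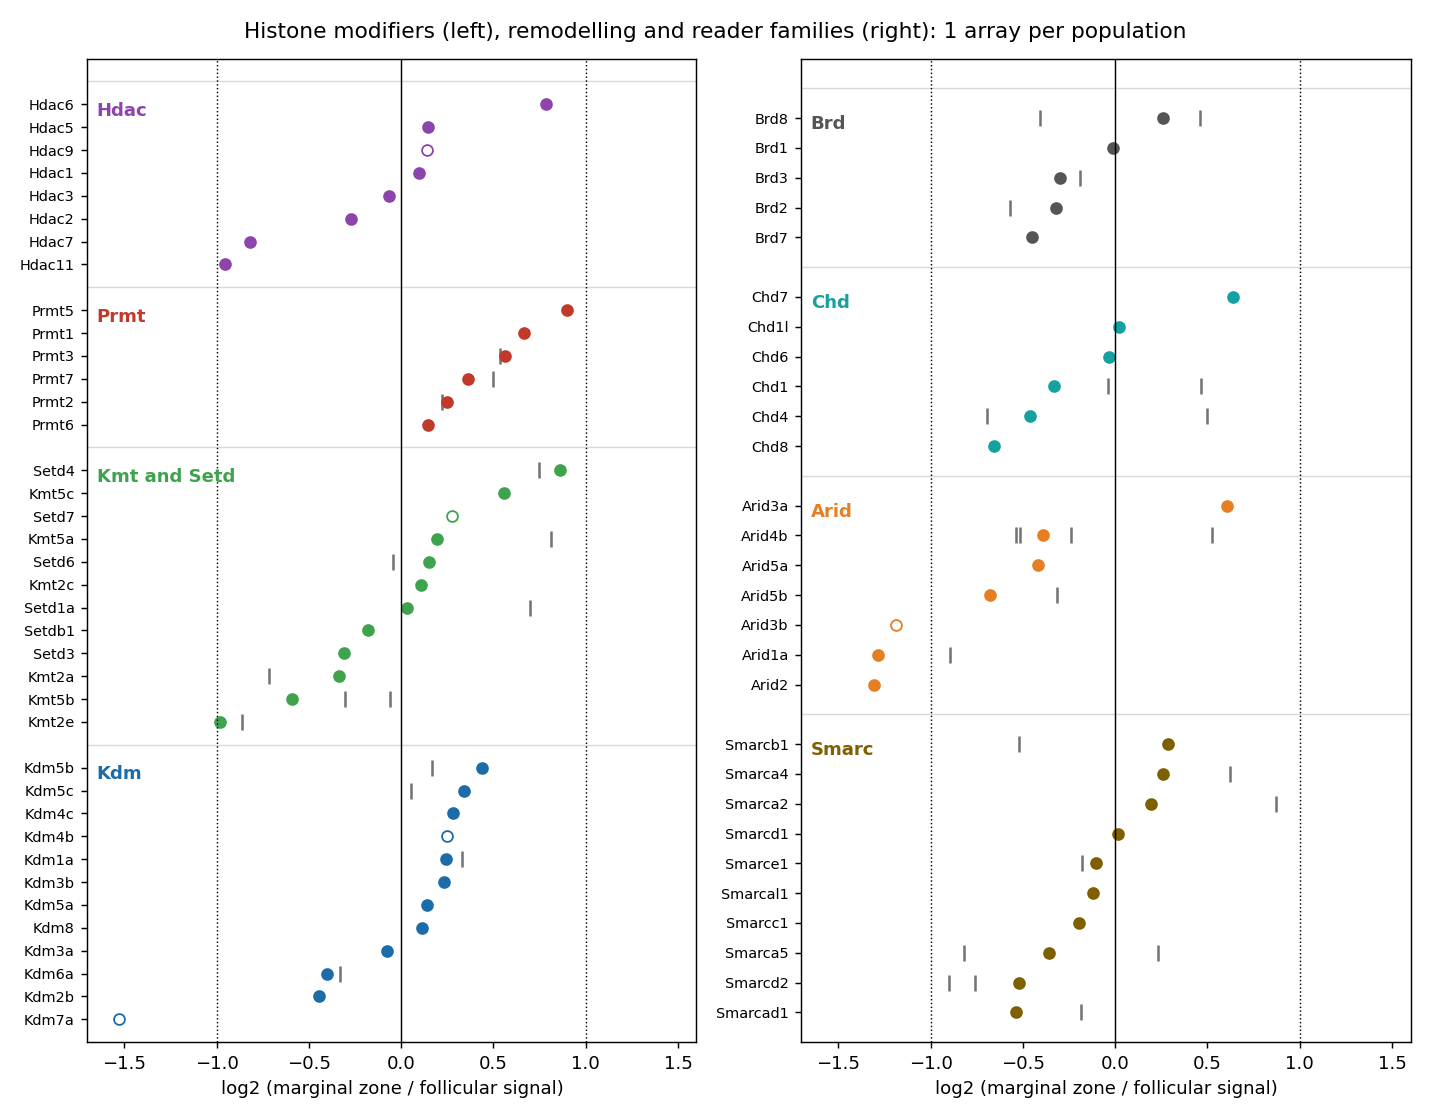
log2 MZ/FO ratio of the signals for the 66 measured members by family, 1 array per population. Circles are the brightest measured probe set of a gene, open where the lower array was at or under the floor so that the ratio is a lower limit of the difference; grey ticks are the gene's other measured probe sets, and dotted lines mark 2-fold. Kdm7a lies furthest left at -1.53 and Prmt5 furthest right at 0.90.

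Arginine methyltransferases had the higher signal in MZ cells in 6 of 6 cases, and 0 of them reached 2-fold. Prmt5, the main enzyme of symmetric arginine dimethylation, was at 35.3 in FO and 65.8 in MZ cells, 1.87-fold higher in the latter. Prmt1, the main enzyme of asymmetric dimethylation, was at 51.6 and 82.0, a 1.59-fold difference. Prmt3, a cytoplasmic enzyme that methylates a protein of the small ribosomal subunit, was at 73.4 and 108, 1.47-fold higher, and its other measured probe set gave a log2 ratio of 0.54 beside 0.56. The remaining members had smaller differences in the same direction. Prmt7, which makes monomethylarginine, was at 19.5 and 25.04, and its other measured probe set gave a log2 ratio of 0.50. Prmt2, a coactivator of nuclear receptors, was at 29.9 and 35.5, and Prmt6, which methylates histone H3 at arginine 2, was at 19.4 and 21.5. All 6 directions were the same under every one of the alternatives in which the gene was measured, and the lowest log2 ratio of Prmt5 was 0.53, with the floor at the 75th percentile. The brightest probe sets of Prmt5 and Prmt2 are of the types _s_at and _x_at, which can bind transcripts of more than 1 gene; over the 5 genes that kept a measured probe set without them, all but Prmt5, the median was 0.36. In the same sample 4 of 6 measured proliferation markers and 7 of 7 measured macrophage and monocyte markers were higher, as given above. Of these, 2 and 4 exceeded the floor only in that sample, so the filter fixed their direction.

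The 250 bases upstream of the annotated starts of the 3 arginine methyltransferase genes with the largest differences are shown because these genes had the higher signal in the same sample. The sequences are from RefSeq on GRCm38.p6, 5′ to 3′ on the strand of the gene, with capitals for matches on either strand to the E-box CACGTG, the CCAAT box, the GC box with the letters GGGCGG and the ETS core with the letters CCGGAA, each also as its reverse complement.
Prmt1, chr7:44986421-44986670, minus strand: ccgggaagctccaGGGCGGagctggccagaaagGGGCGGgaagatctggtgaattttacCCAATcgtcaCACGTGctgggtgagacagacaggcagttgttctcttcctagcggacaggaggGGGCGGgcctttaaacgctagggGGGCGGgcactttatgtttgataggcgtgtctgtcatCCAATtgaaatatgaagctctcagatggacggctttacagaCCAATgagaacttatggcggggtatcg
Prmt3, chr7:49778108-49778357, plus strand: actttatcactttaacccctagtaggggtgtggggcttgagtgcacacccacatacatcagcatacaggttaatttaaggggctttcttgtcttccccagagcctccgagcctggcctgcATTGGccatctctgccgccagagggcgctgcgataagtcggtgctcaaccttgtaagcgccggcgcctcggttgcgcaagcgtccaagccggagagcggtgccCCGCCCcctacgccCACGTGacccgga
Prmt5, chr14:54517471-54517720, minus strand: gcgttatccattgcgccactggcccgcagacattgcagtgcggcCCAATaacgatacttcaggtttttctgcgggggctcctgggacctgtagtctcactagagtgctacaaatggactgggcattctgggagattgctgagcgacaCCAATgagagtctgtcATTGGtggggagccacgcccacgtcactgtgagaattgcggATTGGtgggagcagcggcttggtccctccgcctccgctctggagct
The windows differ in which motifs they hold. That of Prmt1 held 1 E-box, 3 CCAAT boxes and 4 GC boxes, that of Prmt3 held 1 of each of these, and that of Prmt5 held 4 CCAAT boxes and no other of the motifs searched. An E-box match, the letters bound by Myc with Max, was present upstream of 2 of the 6 Prmt genes and of 3 of 58 members with a listed start, against 6.04% of 27025 genes. CCAAT matches were found upstream of 4 of the 6 and of 34.5% of all genes, and GC boxes upstream of 4 of the 6 and of 33.0%. Among the 6269 measured genes with a listed start these shares were 8.79% for the E-box, 36.7% for CCAAT and 60.4% for the GC box. A match describes letters and is not evidence of binding.

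The Arid family, named for its AT-rich interaction domain, was the family with the most members past 2-fold, 3 of 7, all higher in FO cells. Arid2, the subunit that marks the PBAF form of SWI/SNF, was at 405 in FO and 164 in MZ cells, 2.47-fold higher in FO cells on its single probe set. Arid1a, the subunit that marks the BAF form, was at 232 and 95.1, 2.44-fold higher in FO cells. Its other probe set, at 65.2 and 35.0, gave a log2 ratio of -0.90 beside -1.28. These differences stayed past 2-fold under 10 of the alternatives, all but the use of the next brightest probe set, from -1.30 to -1.24 for Arid2 and from -1.28 to -1.09 for Arid1a. Arid3b was at 28.9 and 6.14, with only the FO signal above the floor, and so at least 2.28-fold higher in FO cells, on 1 probe set. Its relative Arid3a, known as Bright, a B cell regulator of immunoglobulin heavy chain transcription, was the one member with the higher signal in MZ cells, at 14.3 and 21.9, a 1.52-fold difference close to the floor. Arid5b, a partner of the demethylase Phf2, was at 96.0 and 59.9, 1.603-fold higher in FO cells, and its other probe set gave a log2 ratio of -0.32. Arid5a, which also binds and stabilises cytokine mRNAs, was at 94.6 and 70.8. Arid4b, a subunit of the Sin3 deacetylase complex, was at 211 and 161, and its 5 probe sets ran from -0.54 to 0.53. The median of the family moved from -0.68 to -0.50 with the mean of all measured probe sets.

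The upstream windows of Arid1a and of Kdm7a are shown as those of 2 genes past 2-fold in FO cells, from the same source and with the same motifs in capitals. RefSeq lists 2 starts for Arid1a, and the upstream one is printed.
Arid1a, chr4:133756770-133757019, minus strand: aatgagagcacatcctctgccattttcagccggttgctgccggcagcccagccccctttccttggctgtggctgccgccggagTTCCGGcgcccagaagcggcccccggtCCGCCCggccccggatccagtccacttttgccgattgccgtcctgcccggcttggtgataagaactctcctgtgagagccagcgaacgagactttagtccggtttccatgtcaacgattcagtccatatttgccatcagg
Kdm7a, chr6:39206774-39207023, minus strand: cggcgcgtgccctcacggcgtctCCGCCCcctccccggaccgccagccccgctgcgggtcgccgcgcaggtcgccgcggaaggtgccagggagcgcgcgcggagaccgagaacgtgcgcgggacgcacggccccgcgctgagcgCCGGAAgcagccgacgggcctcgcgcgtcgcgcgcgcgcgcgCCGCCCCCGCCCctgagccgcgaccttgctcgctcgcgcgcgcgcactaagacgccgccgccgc
Neither of these windows held an E-box or a CCAAT match, while that of Arid3b, also past 2-fold and not printed, held 1 CCAAT box, 7 GC boxes and 2 ETS cores. That of Arid1a held 1 GC box and 1 ETS core, and that of Kdm7a held 3 GC boxes and 1 ETS core at a GC content of 82.0%. ETS core matches were present upstream of 16 of 58 members, 12.3% of all genes and 24.0% of measured genes.

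The other SWI/SNF subunits had differences under 1.5-fold. Smarca4, the ATPase Brg1, was at 160 and 191, and a further probe set gave a log2 ratio of 0.62, and Smarca2, the alternative ATPase Brm, was at 31.5 and 36.02, with its other probe set at 0.87. Both ATPases were therefore higher in MZ cells on each of their measured probe sets. Smarcd2, an accessory subunit needed for granulocyte maturation, went the other way, at 818 and 569, 1.44-fold higher in FO cells, and its other probe sets gave -0.90 and -0.76. Among the core subunits, Smarcc1 was at 157 and 137, Smarce1 at 230.4 and 214, and Smarcd1 at 16.6 and 16.7. Smarcb1, the core subunit lost in rhabdoid tumours, was at 49.1 and 60.0, but its other probe set gave -0.52 and the mean of its probe sets was below 0. Brd7, a PBAF subunit with a bromodomain, was at 44.8 and 32.8. Over the 10 measured SWI/SNF subunits of the symbol families, Arid1a, Arid2 and Brd7 included, 6 were higher in FO cells. Of these, 2 were past 2-fold, and the median of the 10 was -0.15. Subunits with other symbols are not in that count. Pbrm1, Dpf2, Ss18 and Bcl7b were higher in FO cells, with log2 ratios of -0.42, -0.50, -0.50 and -0.30. Phf10, Bcl7c and Actl6a were higher in MZ cells, at 0.36, 0.15 and 0.026.

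Smarc genes outside SWI/SNF were also within 1.5-fold. Smarca5, the ISWI ATPase Snf2h that spaces nucleosomes, was at 610 and 475, 1.28-fold higher in FO cells, and its other probe sets disagreed, at -0.82 and 0.23. Smarcad1, a remodeller that helps to restore silent chromatin after replication, was at 71.6 and 49.3, 1.45-fold higher in FO cells, with its other probe set at -0.19. Smarcal1, a helicase that acts at stalled replication forks, was at 51.0 and 46.9.

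Of the 6 Chd remodellers, 4 were higher in FO cells and 0 reached 2-fold. Chd8, a repressor of beta-catenin target genes, was at 220 and 139, 1.58-fold higher in FO cells. Chd7, mutated in CHARGE syndrome, was at 22.5 and 35.1, 1.56-fold higher in MZ cells, and each of these genes had a single measured probe set. Chd4, the ATPase of the NuRD deacetylase complex, was at 100.0 and 72.5, 1.38-fold higher in FO cells, with the other probe sets at -0.69 and 0.50. Chd1, which binds methylated H3K4 at active genes, was at 253 and 201, but its 3 probe sets had a mean of 0.031. Chd6 and Chd1l, the latter a remodeller recruited by poly(ADP-ribose), were at 64.7 and 63.1 and at 70.6 and 71.8. The sign for Chd6 turned when the arrays were scaled to the same median. The median of the family moved from -0.18 to -0.0059 with the mean of all measured probe sets.

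Bromodomain readers had small differences, 4 of 5 with the higher signal in FO cells. The BET proteins Brd2 and Brd3, which tie acetylated histones to transcription elongation, were at 1072 and 860 and at 22.7 and 18.5, 1.25- and 1.23-fold higher in FO cells. The other measured probe sets had the same sign, at -0.57 for Brd2 and -0.19 for Brd3. Brd8, a subunit of the Tip60 acetyltransferase complex, was at 352 and 420.3, 1.19-fold higher in MZ cells, with its other measured probe sets at -0.41 and 0.46. Brd1, a scaffold of the Hbo1 acetyltransferase complex, was at 80.2 and 79.6, a difference whose sign turned under each of the 4 other scalings.

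Lysine demethylases were mostly higher in MZ cells by small amounts, with Kdm7a as the exception in size. Kdm7a, which removes dimethyl marks from H3K9 and H3K27, was at 36.6 in FO cells and at 8.41, under the floor, in MZ cells, so at least 2.89-fold higher in FO cells on its single probe set. Its log2 ratio ran from -2.12 to -1.22 over the alternatives in which Kdm7a was measured. The 4 measured demethylases of H3K4, a mark of active promoters and enhancers, were all higher in MZ cells, by 1.10- to 1.36-fold. Kdm5b was at 37.0 and 50.2, Kdm5c at 22.03 and 27.9, Kdm1a (Lsd1) at 166 and 196, and Kdm5a at 231 and 254. For Kdm1a, Kdm5b and Kdm5c the other measured probe set had the same sign. The H3K9 demethylases Kdm3b, Kdm4c and Kdm4b were higher in MZ cells and Kdm3a, at 257 and 244, in FO cells; Kdm4b was at 7.17 and 15.0, at least 1.19-fold higher. The H3K27 demethylase Kdm6a (Utx) was at 137 and 104, 1.32-fold higher in FO cells, with its other probe set at -0.33. Of the H3K36 demethylases, Kdm2b, which also recruits Polycomb complexes to unmethylated CpG islands, was at 287 and 210.4, 1.36-fold higher in FO cells, and Kdm8 was at 14.9 and 16.03. The Y-linked Kdm5d was at 6.87 and 6.14, under the floor in both samples of female mice.

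Among lysine methyltransferases, Kmt2e and Setd4 differed most. Kmt2e, an Mll-family protein with a PHD finger that binds methylated H3K4, was at 846 in FO and 428 in MZ cells, 1.98-fold higher in FO cells, just inside the 2-fold threshold. Its other probe set, at 482 and 265, gave -0.86 beside -0.98. Setd4 was at 33.2 and 60.5, 1.82-fold higher in MZ cells, and its other measured probe set, at 15.0 and 25.1, gave 0.75 beside 0.86. Of the H3K4 methyltransferases, Kmt2a (Mll1) was at 102 and 80.9 with its other probe set at -0.72. Kmt2c (Mll3) was at 220.5 and 237, and Setd1a at 73.7 and 75.4 with its other probe set at 0.70. Of these, Kmt2a was higher in FO cells and the others in MZ cells, by small amounts.

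The H4K20 methyltransferases also diverged. Kmt5b (Suv4-20h1), which adds the later methyl groups, was at 202 and 134, 1.51-fold higher in FO cells, and its other measured probe sets gave -0.30 and -0.058. Kmt5c (Suv4-20h2), its paralogue, was at 21.1 and 31.1, 1.47-fold higher in MZ cells on 1 probe set. Kmt5a, the monomethylase active in dividing cells, was at 52.1 and 59.7, with its other probe set at 37.1 and 65.0, a log2 ratio of 0.81. Setdb1, which methylates H3K9 at silenced retroelements, was at 35.4 and 31.3, a 1.13-fold difference. The remaining SET-domain genes act mainly on proteins other than histones or on both: Setd3, an actin histidine methyltransferase, was at 62.8 and 50.8, Setd6, which methylates the NF-kB subunit RelA, at 38.3 and 42.5, and Setd7 at 9.50 and 15.3, at least 1.21-fold higher in MZ cells.

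The 8 deacetylases split evenly by direction, and 0 reached 2-fold. Hdac11, the only class IV enzyme, was at 92.9 and 47.9, 1.94-fold higher in FO cells, and Hdac7, a class IIa corepressor of lymphocytes, was at 32.3 and 18.3, 1.77-fold higher. The second probe set of each of these genes was under the floor on both arrays, so neither difference has a second reading. Hdac6, a mainly cytoplasmic enzyme that deacetylates tubulin, was at 13.24 and 22.8, 1.72-fold higher in MZ cells but close to the floor. The class I enzymes of nuclear corepressor complexes were near equal, with Hdac1 at 145 and 155, Hdac3 at 55.6 and 53.1 and Hdac2 at 17.6 and 14.5. Hdac5, a class IIa enzyme, was at 75.1 and 83.1, 1.11-fold higher in MZ cells, and Hdac9, at 12.1 and 14.0, was at least 1.10-fold higher in MZ cells.

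Agreement between probe sets of a gene was the nearest thing to a repeat measurement, and it covers probe behaviour only. Of 29 members with several measured probe sets, 22 had all of them on the same side of 0 (75.9%), against 59.3% of 2622 genes overall. The pooled SD between probe sets of a gene was 0.35 on the log2 scale for members and 0.43 for all genes, and 42 of the 66 measured members had log2 ratios smaller in size than that SD over all genes. The other 37 measured members rested on 1 probe set. The members with mixed signs were Arid4b, Brd8, Chd1, Chd4, Setd6, Smarca5 and Smarcb1. Kdm5d, Kmt2d, Smarca1 and Smarcd3 were not measured: Kmt2d, the Mll-family H3K4 methyltransferase of enhancers, was at 1.31 and 5.34, Smarca1 at 7.98 and 3.96, and Smarcd3 at 1.21 and 0.99. Just inside the 2-fold threshold lay Kmt2e at -0.98 and Hdac11 at -0.96. Outside it, the smallest values were those of Arid1a at -1.28 and Arid3b at -1.19. The value of Arid3b is set by the floor and is a lower limit of the difference.

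Other chromatin genes, from lists of known complexes, were more often higher in FO cells. Of 122 such genes 83 were measured, 52 with the higher signal in FO and 31 in MZ cells, with a median of -0.16. The 62.7% that were higher in FO cells compare with 52.2% of all measured genes. At least 2-fold higher were 3 in FO and 2 in MZ cells, shares of 3.61% and 2.41% that were no larger than the 4.86% and 4.39% over all measured genes. Kat6a, the acetyltransferase Moz, was at 134 and 49.6, 2.71-fold higher in FO cells. Ezh1, a methyltransferase of Polycomb repressive complex 2 that marks H3K27, was at 56.0 and 21.0, 2.67-fold higher in FO cells, and Phc1, a subunit of Polycomb repressive complex 1, was at 68.9 and 30.8, 2.24-fold higher. In MZ cells, Smyd2, a methyltransferase of histones and p53, was at 1.21 and 52.8, at least 4.17-fold higher, and Hells, a remodeller that supports DNA methylation, was at 12.7 and 26.1, 2.05-fold higher. Each of these genes had 1 measured probe set.

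By complex, the lists differed in their medians. Polycomb genes had a median of -0.48 with 12 of 18 higher in FO cells, genes of DNA methylation and demethylation one of -0.61 with 4 of 5, acetyltransferases one of -0.39 with 6 of 9, and partners of the H3K4 methyltransferases one of -0.36 with 8 of 10. Sirtuins had a median of -0.17 over 4 genes, deacetylase corepressor partners one of -0.070 over 15 and other remodeller subunits one of -0.0026 over 18. The 4 other methyltransferases measured were all higher in MZ cells, with a median of 0.44. Among these was Carm1, chosen after its values were seen, an arginine methyltransferase whose symbol lies outside the Prmt family name. Carm1 was at 32.5 and 50.9, 1.56-fold higher in MZ cells.

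**Figure D4:**
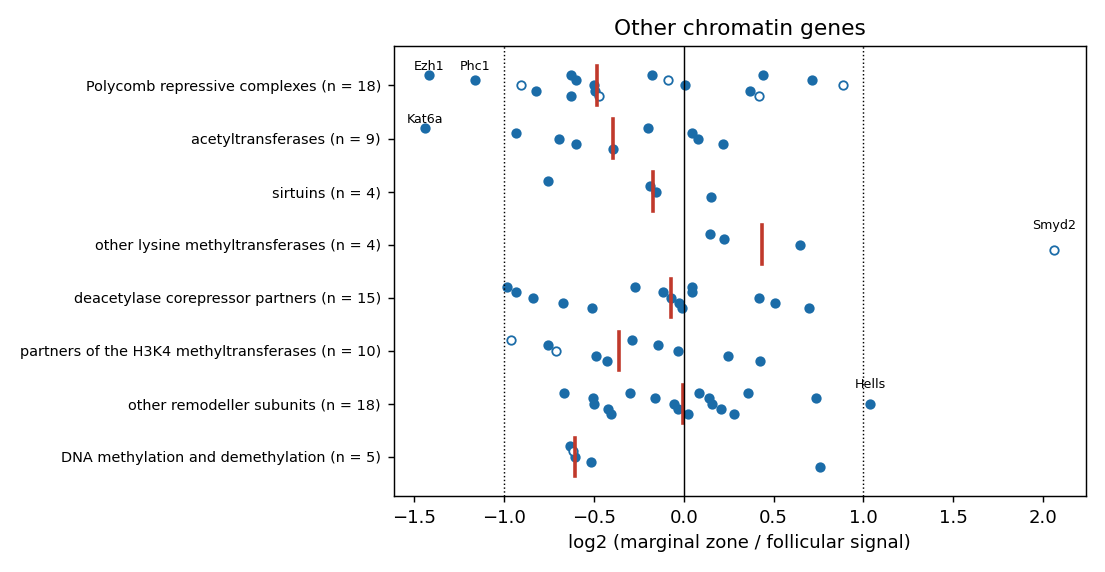
log2 MZ/FO ratio of the signals for 83 measured chromatin genes outside the symbol families, by list, 1 array per population. Points are genes, open where 1 array was at or under the floor, red bars are list medians and dotted lines mark 2-fold. The 5 named genes are past 2-fold. The medians run from -0.61 for DNA methylation to 0.44 for the list labelled other lysine methyltransferases, which also holds the arginine methyltransferase Carm1.

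**Figure D5:**
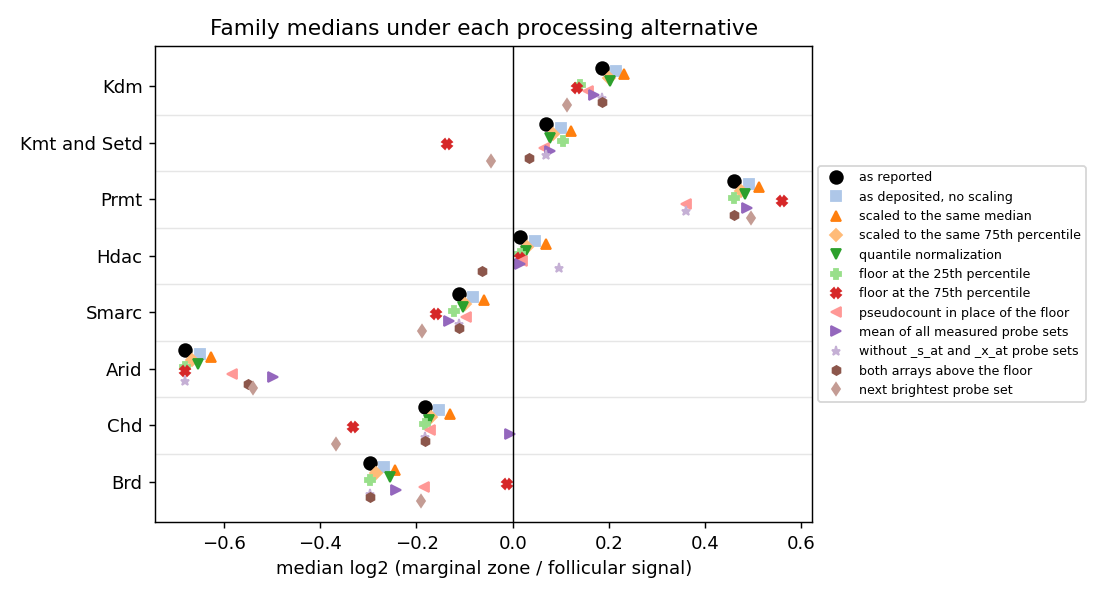
Median log2 MZ/FO ratio of the signals of each family under the reported processing (black circle) and 11 alternatives (coloured symbols), 10 for Hdac, for which the next brightest probe set gave no value. Prmt and Kdm stay right of 0 and Smarc, Arid, Chd and Brd left of it under each alternative, while Kmt with Setd and Hdac cross 0.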

How the data were processed

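Gene expression was measured on 2 single-channel Affymetrix arrays, 1 per population, from about 100 ng of total RNA each. The authors deposited linear intensities of each probe set, made with MAS5 per the submitters' processing notes. Its version and scaling target were not given in the sources used here, nor were detection calls. Intensities ran up to 8521 (follicular) and 8203 (marginal zone) over 22626 probe sets. The number of arrays limits the precision.

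Both arrays were brought to a common 2% trimmed mean (factors 1.01 and 0.990). Values under the median of all scaled values, 12.7, were raised to it, and folds against that floor are written "at least". For a gene, the measured probe set that was brightest by mean log2 value was used, named from the platform annotation (20380 probe sets with 1 gene, 691 with several, 1555 not listed); all 70 member symbols equalled those of RefSeq (GRCm38.p6) by Entrez identifier. Signals of different genes are not comparable as levels. The procedure was tested on simulated data (Python 3.11.15, numpy 2.4.6, pandas 2.3.3, scipy 1.17.1). That test planted large changes in genes well above the floor. It does not cover differences as small, or signals as near the floor, as many of those given here.

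Members and lists were chosen with earlier results of these data known. Named with values were all members past 2-fold, the 2 largest differences per family among those reaching a signal of 45.7 on 1 array, and the largest per functional group; other members are listed with short values. For promoters, the upstream start of each gene was used. Alternatives were 4 scalings, 2 floors, a pseudocount of 12.7, 2 probe set rules, a stricter filter and thresholds of 1.5- and 3-fold; the next brightest probe set was added after seeing the data.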

Additional observations from a re-analysis of the deposited data

How the results depend on the processing

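No paired analysis was possible because each group holds 1 array. Of the 66 measured members, 62 kept their direction under each alternative, other than the next brightest probe set, in which they were measured; the exceptions were Brd1 and Chd6, whose sign turned with the scaling, and Chd1 and Smarcb1, whose sign turned with the mean of probe sets. With the floor at the 25th percentile 1 member, Kdm4b, was at least 2-fold higher in MZ cells, at a log2 ratio of 1.07. With the floor at the 75th percentile 2 members were at least 2-fold higher in FO cells, the median of all members was -0.10, that of Kmt with Setd -0.14 and that of Brd -0.012; 43 members were left, which is by construction. Requiring both arrays above the floor also left 2 members past 2-fold in FO cells, since Arid3b and Kdm7a drop out. With the mean of all measured probe sets the medians of Arid and Chd were -0.50 and -0.0059. With the next brightest probe set the median of all members was -0.058 over 29 genes, and that of Chd -0.37 over 2. At 1.5-fold the counts were 6 in MZ and 10 in FO cells, and at 3-fold 0 in FO cells. All other counts were within 1.5 times the reported ones, and all other medians moved by less than the probe set SD of 0.43 divided by the root of the number of genes.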

Other observations

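Within the Polycomb list, the subset of Polycomb repressive complex 2, which places the silencing methyl mark on H3K27, stood out after its values were seen, and it has no test. Of the 9 genes listed for it, all measured, 7 had the higher signal in FO cells, a direction held by 52.2% of all measured genes. Their median log2 MZ/FO ratio was -0.60, beside -0.030 over all measured genes. Jarid2, a cofactor that guides the complex, was at 1098 in FO and 620.2 in MZ cells, and its 3 measured probe sets were at -0.82, -0.64 and -0.051. Suz12 and Eed, the core partners of the methyltransferase, were at 527 and 347 and at 409 and 290, and the 4 measured probe sets of Suz12 ran from -0.65 to -0.037. Mtf2, which brings the complex to CpG islands, was at 266 and 173, with all 4 measured probe sets below 0. Phf19, also counted as higher in FO cells, was at 23.7 and 12.5, under the floor in MZ cells. Its other measured probe set went the other way, at 0.60. The exceptions among the 9 were Phf1, at 21.4 and 27.6, and Aebp2, at 163 and 164. Rbbp4 and Rbbp7, subunits that this complex shares with deacetylase complexes, were listed with the corepressor partners and are not in the 9. Both were higher in MZ cells, Rbbp4 at 1091 and 1128 and Rbbp7 at 1082 and 1448. Sin3a, a scaffold of deacetylase complexes, was at 66.6 and 33.7 and its 3 probe sets ran from -1.20 to -0.29.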
